A study of Mus musculus with 12 samples.

Results

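Bright fibroblasts from lungs regrowing after a pneumonectomy were compared between mice that expressed a dominant-negative FGF receptor and mice that did not. The comparison uses 4 of the 12 arrays of the series, all those whose titles name the bright gate and pneumonectomy: 2 of bright PNX-dnFGFR cells and 2 of bright PNX cells. Every animal carried GFP as a reporter of Pdgfra, the gene of PDGF receptor alpha. PNX-dnFGFR animals had part of the lung removed and expressed a dominant-negative FGFR2. PNX animals had the same operation without that receptor. SHAM animals, whose 2 bright arrays are given for orientation, had a sham operation. Each sample was 2000 cells sorted from a digested lung on day 5, and its RNA was amplified over 25 cycles before hybridisation to Affymetrix arrays. The labels give neither the promoter that drives the dominant-negative receptor, nor the cells that make it, nor the animals' ages. They call the replicates biological without saying whether each is 1 animal or a pool. The p-values therefore rest on the spread between replicate samples, estimated over the 6 groups of all 12 arrays. All differences are PNX-dnFGFR minus PNX, in log2 units of the deposited RMA signal.

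FGF receptors are tyrosine kinases that pair up when they bind FGF, and a receptor without a working kinase blocks its partner by joining the pair. FGF10 and FGF7, made by lung fibroblasts, act on the FGFR2 of epithelial cells, and FGF signals to fibroblasts are part of the formation of new alveolar walls. Lung fibroblasts include alveolar fibroblasts, which lie in the alveolar wall and store lipid, adventitial fibroblasts around vessels and airways, and alpha smooth muscle actin-positive myofibroblasts, which lay down elastin at growing septa. The cells marked by high Pdgfra promoter activity include myofibroblasts of the developing and regrowing lung.

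The arrays of the 2 groups were not equally alike. Pearson's r across the 11073 genes tested was 0.9762 between the PNX-dnFGFR arrays and 0.9533 between the PNX arrays (genes are no replicates of each other). PNX replicate 1 correlated with the PNX-dnFGFR arrays at 0.9765 and 0.9683, and PNX replicate 2 at 0.9368 and 0.9327. PNX replicate 1 was therefore closer to the PNX-dnFGFR arrays than to its own replicate, and PNX replicate 2 was closer to the SHAM arrays (0.9667 and 0.9618). Of 136 genes named here with a difference of at least 0.3 (Dusp4 is not counted), 45 were smaller by over 1.5 times without PNX replicate 2. Of these 45, 3 turned sign. Without PNX replicate 1, 18 of the 136 were larger by as much. Without PNX-dnFGFR replicate 1 the value moved by over 1.5 times in 15 genes, and without PNX-dnFGFR replicate 2 in 16. The 12 fibroblast marker genes averaged 10.23 and 10.11 on the PNX-dnFGFR arrays and 10.23 and 10.23 on the PNX arrays. Pdgfra itself had signals of 5.54 and 5.29 in PNX-dnFGFR cells and 4.84 and 5.08 in PNX cells, close to the filter of 5.101 above which a gene counted as measured. On the dim arrays of the same 2 treatments it had 6.92 and 6.99 in PNX-dnFGFR cells and 6.66 and 6.97 in PNX cells, so the level of this transcript goes against the names of the gates. In bulk samples fewer cells of a type and less RNA per cell cannot be told apart.

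Stmn2, which encodes stathmin 2, a microtubule-destabilising protein best known from neurons, was the 1 gene at a limma adjusted p below 0.05. Its signal was 7.73 and 7.49 on the PNX-dnFGFR arrays, 5.59 and 4.99 on the PNX arrays and 5.17 and 5.01 on the SHAM arrays. Both PNX-dnFGFR arrays stood clear of the other 4. Stmn2 rose by 2.32 ± 0.23 log2 (SE, n = 2 arrays per group, 5-fold, limma adjusted p = 0.024). In dim cells, the other sorted gate, the same difference was -0.17 ± 0.23, and limma's contrast of the bright and the dim difference gave 2.49 ± 0.32 (unadjusted p = 2.3e-05, adjusted p = 0.25). Stmn2 passed in 12 of 21 alternatives. Its adjusted p was 0.37 when the 4 compared arrays were fitted alone and 0.051 with the replicate block. It was 0.18 without PNX replicate 2 (2.02), 0.15 without PNX-dnFGFR replicate 2 (2.44), 0.082 without either dim PNX-dnFGFR array and 0.073 without either bright SHAM array. For the average over its probe sets it was 0.061 (1.59), the other probe set above the filter having differed by 0.87. Of 8 glia and neuron markers, 2 passed the filter. Tubb3, a neuronal tubulin, had 5.66 and 6.36 in PNX-dnFGFR cells and 5.58 and 5.17 in PNX cells (0.63, unadjusted p = 0.039). The part of such cells in the Stmn2 value was not tested.

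Of the 11073 genes, 1 was higher at an adjusted p below 0.05 (0.00903%) and 0 were lower. At an unadjusted p below 0.05, 615 were higher (5.55%) and 775 lower (7.00%), together 12.6%, and in dim cells 7.79% (3.53% higher and 4.26% lower). Counts of list members at this threshold, given below for bright cells, are to be read beside these shares of 5.55% and 7.00%. Whatever the p, 5646 of the 11073 genes were above 0 and 5427 below, the background for counts of members by sign. On 2372 genes (21.4%) both PNX-dnFGFR arrays were above both PNX arrays, and on 2468 (22.3%) both were below. At an adjusted p below 0.1, a threshold added after the data were seen, 32 genes were higher and 34 lower. The array number limits the precision: the standard error of a difference had a median of 0.196 log2. The genes described from here on did not pass at 0.05 and are given as values. A single gene tested over 2 against 2 arrays by exact permutation cannot go below a two-sided p of 0.333.

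**Figure D1:**
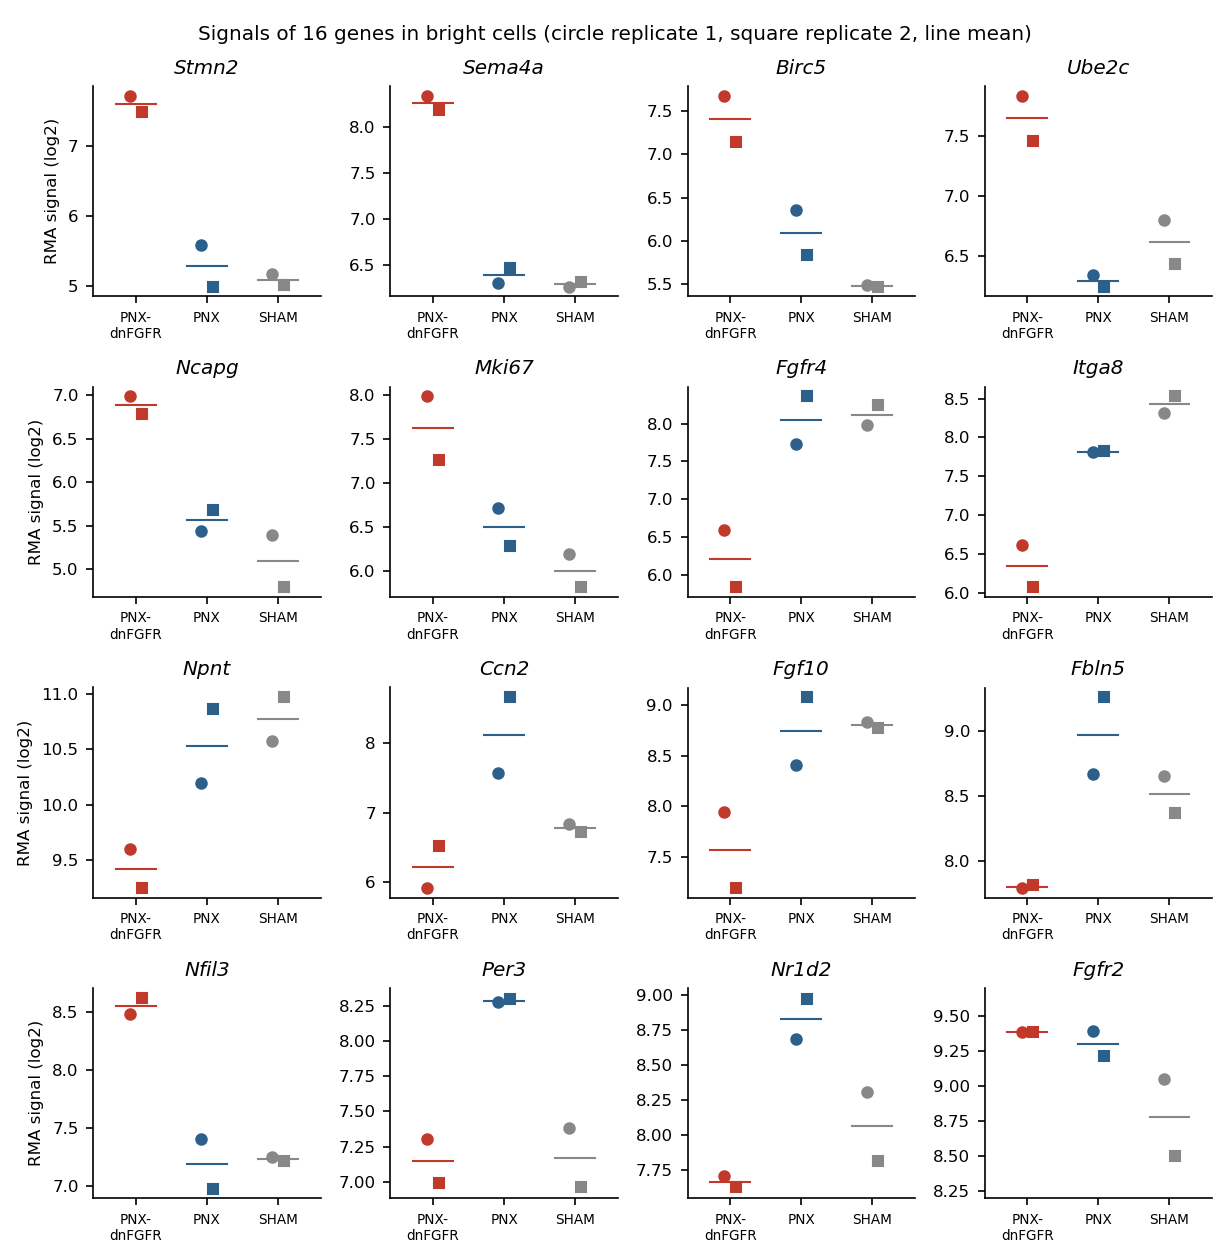
RMA signal (log2) of 16 genes on the bright arrays, PNX-dnFGFR, PNX and SHAM from left to right. Circles are replicate 1, squares replicate 2 and lines the mean of the pair, with an axis of its own for each gene that spans at least 1.5 log2. In 15 of the panels the PNX-dnFGFR and PNX arrays do not overlap; for Fgfr2 they do, within 9.21 to 9.39.

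Within the FGF pathway the largest difference was that of a receptor. Fgfr4, which alveolar fibroblasts of the mouse lung express, had signals of 6.59 and 5.84 in PNX-dnFGFR cells, 7.73 and 8.36 in PNX cells and 7.98 and 8.25 in SHAM cells. Both PNX-dnFGFR arrays were below all PNX and SHAM arrays, with a difference from PNX of -1.83 ± 0.26 log2 (limma unadjusted p = 5.6e-05, adjusted p = 0.065). The dim difference was 0.02. The decrease was seen against either PNX array alone, at -2.14 against replicate 2 and -1.52 against replicate 1. The 5 Fgfr4 probe sets above the filter ranged in difference between -1.83 and -0.50.

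Fgfr1 had 9.92 and 10.15 in PNX-dnFGFR cells and 10.57 and 10.81 in PNX cells (-0.65, unadjusted p = 0.0025). Fgfr3 had 8.83 and 8.58 in PNX-dnFGFR cells and 9.16 and 10.20 in PNX cells (-0.97, unadjusted p = 0.01). Both receptors were lower on both PNX-dnFGFR arrays, with no overlap, but the Fgfr3 difference was -0.46 without PNX replicate 2 and -1.49 without PNX replicate 1. Fgfr2, the receptor from which the dominant-negative form derives, had 9.38 and 9.38 in PNX-dnFGFR cells and 9.39 and 9.21 in PNX cells (0.08 ± 0.36, unadjusted p = 0.84). Its groups overlapped. Whether the probe set reads the transgene's transcript is not known, so this value is no check of the genotype. Sdc4, a heparan sulphate proteoglycan that acts as a co-receptor, was at 0.61 (unadjusted p = 0.015). Of the 11 FGF receptors and co-receptors tested, 1 was higher and 4 were lower at an unadjusted p below 0.05, the fourth being the syndecan Sdc2 (-0.42, unadjusted p = 0.036). Their median was -0.17, against 0.01 over all genes. Leaving out PNX replicate 2 or PNX-dnFGFR replicate 2 gave 2 lower and 0 higher, and 2 were higher without PNX replicate 1.

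Among the ligands, Fgf10 had 7.94 and 7.19 in PNX-dnFGFR cells, 8.41 and 9.08 in PNX cells and 8.83 and 8.77 in SHAM cells. Its PNX-dnFGFR arrays were the lowest of the 6 (-1.18 ± 0.30, unadjusted p = 0.0033, adjusted p = 0.15). Fgf7 had 8.52 and 7.93 in PNX-dnFGFR cells and 8.65 and 9.34 in PNX cells (-0.77, unadjusted p = 0.012). The Fgf7 groups did not overlap, but replicate 1 of each lay nearer to the other than to its own replicate 2. Fgf2 was at -0.35 (unadjusted p = 0.055) and Fgf18 at 0.10 (unadjusted p = 0.78). Of the 6 ligands tested, 2 were lower at an unadjusted p below 0.05 and 0 higher, and 1 was lower without PNX replicate 2 or without PNX-dnFGFR replicate 2. Fgf7 was at -0.42 and -0.48 without those arrays.

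The feedback genes that FGF signals switch on were mixed. Spry1, a Sprouty inhibitor of receptor tyrosine kinase signals, had 6.82 and 6.37 in PNX-dnFGFR cells and 7.47 and 8.32 in PNX cells (-1.30 ± 0.30, unadjusted p = 0.0019). Spry4, another Sprouty, had 8.33 and 8.48 in PNX-dnFGFR cells and 9.13 and 9.18 in PNX cells (-0.75, unadjusted p = 0.0012). For both the groups were apart. Spry2 was at 0.04, Dusp6, an ERK phosphatase, at 0.26 and Etv5, an ETS factor downstream of FGF, at 0.44, with overlapping arrays in each. Dusp4, of the same list, had 6.76 and 7.62 in PNX-dnFGFR cells and 6.85 and 5.35 in PNX cells, which overlap (1.09, unadjusted p = 0.062). It was at 1.84 without PNX replicate 1 and 0.35 without PNX replicate 2. Of the 15 feedback and target genes tested, 2 were lower at an unadjusted p below 0.05 and 0 higher, with a median of -0.02. Without PNX replicate 1 there were 4 lower and 2 higher.

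Alveolar fibroblast genes were the list with the lowest median of the 45. Of 15 members tested, 11 were lower at an unadjusted p below 0.05 and 0 higher, and the median was -0.76. Among the 11 was Slc7a10 (-0.70), with 4.10 and 4.25 in PNX-dnFGFR cells and 4.71 and 5.04 in PNX cells. All of these are below the filter, and Slc7a10 was at 0.00 with such values held at it. Itga8, the integrin alpha 8 chain, had 6.62 and 6.07 in PNX-dnFGFR cells, 7.81 and 7.82 in PNX cells and 8.32 and 8.53 in SHAM cells (-1.47 ± 0.20, unadjusted p = 3.3e-05, adjusted p = 0.065). Npnt, nephronectin, a matrix ligand of that integrin, had 9.6 and 9.25 in PNX-dnFGFR cells, 10.20 and 10.86 in PNX cells and 10.57 and 10.97 in SHAM cells (-1.10 ± 0.23, unadjusted p = 8.5e-04). Both genes had their lowest signals on the PNX-dnFGFR arrays. Mfap4, a microfibril-associated protein, was at -0.72 (unadjusted p = 0.0018) and Inmt, a methyltransferase, at -0.35 (unadjusted p = 0.022). Tcf21, a transcription factor of lipid-storing lung fibroblasts that was picked after its values were seen, had 7.40 and 6.99 in PNX-dnFGFR cells and 7.68 and 8.69 in PNX cells (-0.99, or -0.49 without PNX replicate 2). Rarres2, the chemerin gene, was at -0.09.

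The mean signal of the alveolar fibroblast list was 7.68 and 7.56 on the PNX-dnFGFR arrays, 8.18 and 8.56 on the PNX arrays and 8.41 and 8.67 on the SHAM arrays. On the dim arrays it was 10.58 to 10.75, and the median dim difference was 0.10. For 9 of the 15 members limma's contrast of the bright and dim differences had an unadjusted p below 0.05, where 8.21% of all genes did, and for 0 of them an adjusted one. Leaving out 1 of the 4 arrays at a time, the number lower was 10 without PNX replicate 1, 6 without PNX replicate 2, 11 without PNX-dnFGFR replicate 1 and 7 without PNX-dnFGFR replicate 2. The median was -1.07 without PNX replicate 1 and -0.49 without PNX replicate 2. Whether the share of dim-type cells among those sorted as bright differed between the groups was not tested.

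**Figure D2:**
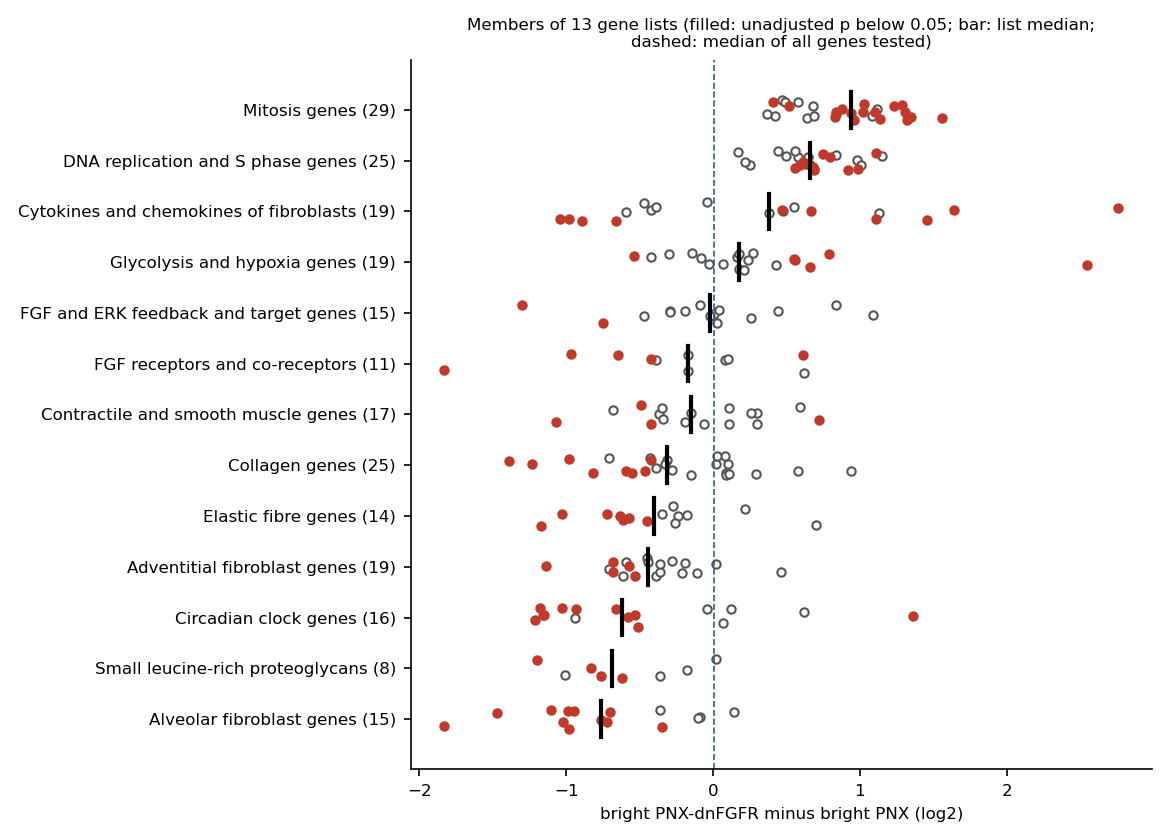
Difference between bright PNX-dnFGFR and bright PNX cells (log2) for every tested member of 13 lists, with the number tested in brackets. Filled points have an unadjusted p below 0.05, bars are list medians and the dashed line is the median of all genes. All 29 mitosis genes lie right of 0, and 14 of the 15 alveolar fibroblast genes lie left of it.

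Cell division genes were higher. All 29 mitosis genes tested were above 0, 18 of them at an unadjusted p below 0.05, with a median of 0.94. These 29, of 36 with a probe set, passed the filter, which the bright PNX-dnFGFR arrays alone sufficed to pass. A gene that passed in that way, such as Nusap1, is above 0 by selection, so the filter in part sets this count. With values below the filter held at it, the median was 0.83. Birc5, which encodes survivin, a subunit of the chromosomal passenger complex, had 7.68 and 7.14 in PNX-dnFGFR cells, 6.35 and 5.83 in PNX cells and 5.49 and 5.47 in SHAM cells (1.32 ± 0.22, unadjusted p = 1.8e-04, adjusted p = 0.077). Ube2c, the ubiquitin-conjugating enzyme of the anaphase-promoting complex, had 7.84 and 7.46 in PNX-dnFGFR cells, 6.35 and 6.25 in PNX cells and 6.80 and 6.44 in SHAM cells (1.35, unadjusted p = 6.7e-04). The PNX-dnFGFR arrays had the 2 highest signals of both genes, and for Ube2c the PNX arrays were the lowest.

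Ncapg, a condensin subunit, had 6.99 and 6.79 in PNX-dnFGFR cells and 5.44 and 5.68 in PNX cells (1.33, unadjusted p = 0.0015). Nusap1, a spindle protein, was at 1.03 (unadjusted p = 4.5e-04), although of the bright arrays only the PNX-dnFGFR ones exceeded the filter and the difference was 0.51 with values below the filter held at it. Mki67, the gene of the Ki-67 antigen of cycling cells, had 7.99 and 7.27 in PNX-dnFGFR cells, 6.72 and 6.29 in PNX cells and 6.20 and 5.82 in SHAM cells. Its groups did not overlap, but the fitted spread over the 12 arrays was wide (1.12 ± 0.68, unadjusted p = 0.13). Ccna2, cyclin A2, was at 0.83 (unadjusted p = 0.039) and Kif20a, a mitotic kinesin, at 0.58 (unadjusted p = 0.11).

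DNA replication and S phase genes stood in the same direction. All 25 tested were above 0, 12 of them at an unadjusted p below 0.05, with a median of 0.66. These 25, of 32 with a probe set, passed the same filter, and with low values held at it the median was 0.66 too. Mcm4, a subunit of the replicative helicase, had 7.0 and 7.12 in PNX-dnFGFR cells and 6.34 and 6.39 in PNX cells (0.69, unadjusted p = 0.0081). Rrm1, the large subunit of ribonucleotide reductase, was at 0.59 (unadjusted p = 0.0089), Mcm10 at 0.63 (unadjusted p = 0.012) and Slbp, which binds histone mRNA, at 0.56 (unadjusted p = 0.013). The most abundant members had wide errors: Mcm5 was at 1.15 ± 0.83 and Pcna, the polymerase clamp, at 0.25 ± 0.37.

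By array, the mitosis list averaged 7.15 and 6.48 in PNX-dnFGFR cells, 5.97 and 5.84 in PNX cells and 5.49 and 5.31 in SHAM cells. The replication list averaged 7.61 and 7.29 in PNX-dnFGFR cells, 6.89 and 6.65 in PNX cells and 6.22 and 5.96 in SHAM cells. In both lists the 3 groups did not overlap, and PNX-dnFGFR cells were the highest. The dim medians were 0.09 and -0.12. The number of mitosis genes with an unadjusted p below 0.05 was 11 without PNX replicate 1, 10 without PNX replicate 2, 7 without PNX-dnFGFR replicate 1 and 24 without PNX-dnFGFR replicate 2. The replication count was 10, 3, 1 and 11 in the same order. PNX-dnFGFR replicate 1 thus carried the higher values of both lists, while the mitosis median was 0.95 without PNX replicate 1 and 0.91 without PNX replicate 2.

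**Figure D3:**
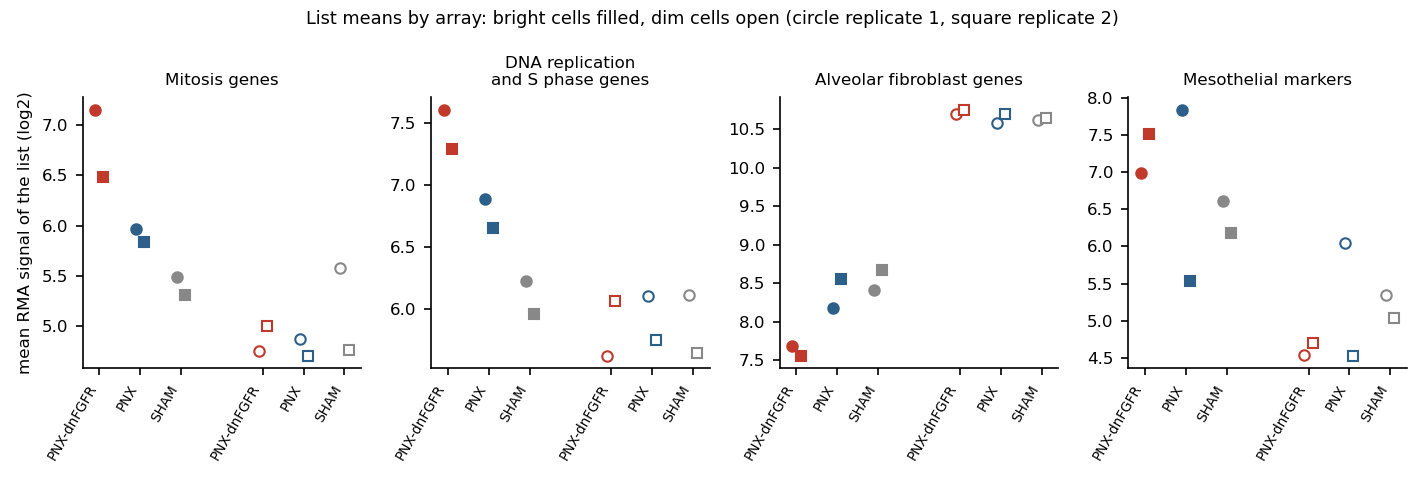
Mean RMA signal (log2) of 4 lists on each array, with bright cells as filled and dim cells as open symbols and PNX-dnFGFR, PNX and SHAM from left to right in each gate. In bright cells the mitosis and replication means are highest in PNX-dnFGFR cells and the alveolar fibroblast mean is lowest there; the mesothelial mean of PNX replicate 2, 5.53, lies apart from the 7.84 of PNX replicate 1.

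Promoters of mitosis genes often hold the cell cycle homology region, the letters TTTGAA, through which the DREAM and MuvB complexes act. The letters were sought in the 250 bases before each RefSeq start on GRCm38.p6, on either strand (TTTGAA or TTCAAA). They were found in 11 of the 24 mitosis genes that had a promoter entry (45.8%), in 1 of 22 replication genes (4.55%) and in 18.3% of all 27025 genes with an entry. Birc5, Nusap1, Ccna2 and Kif20a, also described above, are not among these 11 mitosis genes, for lack of either a match or an entry. A match is a description of these letters, not a site. The sequences of 3 mitosis genes with a match, Mki67, Ncapg and Ube2c, are shown because these genes were described above, 5′ to 3′ in the direction of the gene, with the match in capitals.
Mki67, chr7:135716430-135716529, minus strand, matches at -116 and -98 from the start: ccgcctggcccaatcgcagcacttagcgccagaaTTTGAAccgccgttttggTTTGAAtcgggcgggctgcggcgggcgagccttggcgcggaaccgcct
Ncapg, chr5:45669675-45669924, plus strand, match at -30: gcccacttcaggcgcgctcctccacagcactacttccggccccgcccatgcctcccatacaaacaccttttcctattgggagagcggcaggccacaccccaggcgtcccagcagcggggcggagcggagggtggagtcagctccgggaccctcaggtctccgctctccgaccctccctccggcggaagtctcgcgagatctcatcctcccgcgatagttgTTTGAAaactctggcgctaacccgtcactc
Ube2c, chr2:164769679-164769928, plus strand, match on the opposite strand at -29: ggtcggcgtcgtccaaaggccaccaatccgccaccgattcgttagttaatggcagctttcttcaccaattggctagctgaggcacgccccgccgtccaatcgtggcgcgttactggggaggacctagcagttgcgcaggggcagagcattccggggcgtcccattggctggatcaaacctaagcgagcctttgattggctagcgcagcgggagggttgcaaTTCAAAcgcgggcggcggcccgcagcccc
The match lies within 30 bases of the start in Ncapg and Ube2c, and Mki67 has a pair of matches further upstream.

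Most circadian clock genes were lower. Of 16 tested, 10 were lower and 1 was higher at an unadjusted p below 0.05, with a median of -0.62. Nfil3, a bZIP repressor that binds D-boxes, had 8.48 and 8.62 in PNX-dnFGFR cells, 7.41 and 6.98 in PNX cells and 7.25 and 7.22 in SHAM cells (1.36 ± 0.20, unadjusted p = 8.2e-05, adjusted p = 0.065). Per3, a period gene, had 7.30 and 6.99 in PNX-dnFGFR cells, 8.28 and 8.30 in PNX cells and 7.38 and 6.96 in SHAM cells (-1.15 ± 0.21, unadjusted p = 4.1e-04). Nfil3 was high only on the PNX-dnFGFR arrays of these 6, whereas Per3 was high on the PNX arrays and alike in PNX-dnFGFR and SHAM cells.

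Nr1d2, the nuclear receptor REV-ERB beta, had 7.71 and 7.63 in PNX-dnFGFR cells and 8.69 and 8.97 in PNX cells (-1.16, unadjusted p = 3.1e-04). Hlf, a bZIP activator at D-boxes, was at -1.03 (unadjusted p = 0.0012) and Rora, a nuclear receptor that activates Arntl, at -0.58 (unadjusted p = 0.0022). The other D-box activators, picked after their values were seen, were at -1.18 for Dbp (unadjusted p = 0.011) and -0.93 for Tef (unadjusted p = 0.0026). Arntl, the BMAL1 gene, had 5.87 and 6.30 in PNX-dnFGFR cells and 5.44 and 5.49 in PNX cells (0.62, unadjusted p = 0.078). The number of clock genes lower was 9 without PNX replicate 1, 5 without PNX replicate 2, 6 without PNX-dnFGFR replicate 1 and 8 without PNX-dnFGFR replicate 2. The dim median was -0.30, with 4 clock genes lower and 3 higher there, Per3 (-0.87) and Nfil3 (0.78) among them. Nr1d2 was the member with an unadjusted p below 0.05 in limma's contrast of the bright and dim differences (unadjusted p = 0.014). The labels do not give the hour at which lungs were taken, so hour and group cannot be told apart for these genes.

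The D-box letters TTATGTAA (reverse TTACATAA) occurred in the 250 bases before the start in 1 of 14 clock genes with an entry (7.14%), Per3, and in 0.977% of all genes. The E-box letters CACGTG were sought too. They occurred in 4 of the 14 (28.6%), Per3 not among them, and in 6.86% of all genes. The D-box letters are shown as background to the opposed signals of Nfil3 and Per3 and say nothing about binding in these cells.
Per3, chr4:151044786-151044905, minus strand, GRCm38.p6, matches at -205 and -158: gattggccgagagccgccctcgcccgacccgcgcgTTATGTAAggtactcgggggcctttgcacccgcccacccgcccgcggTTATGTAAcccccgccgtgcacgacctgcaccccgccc
Both copies read in the direction of the gene.

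**Figure D4:**
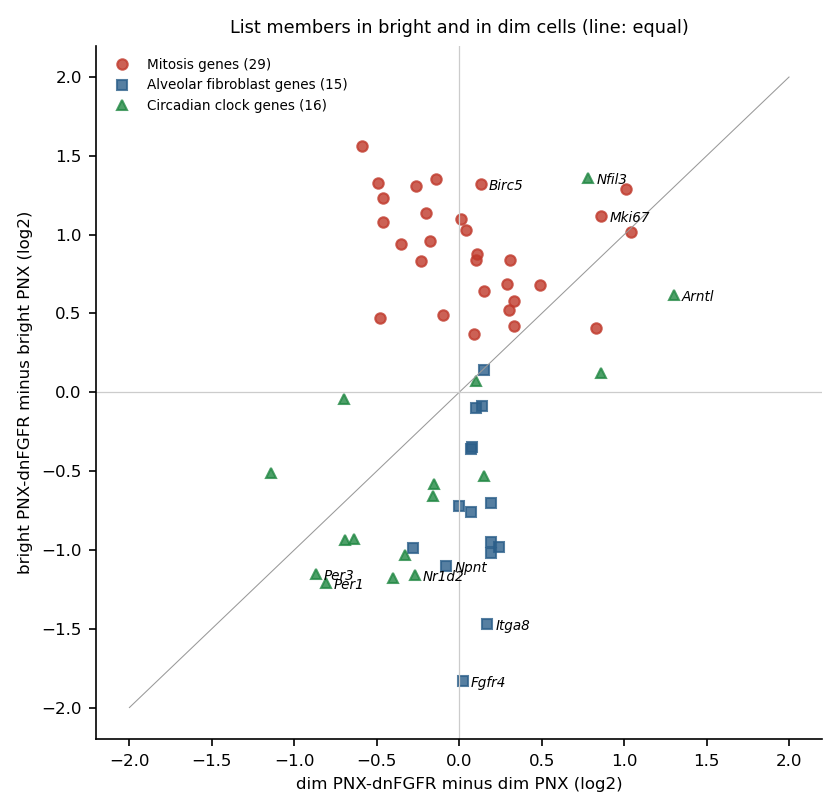
PNX-dnFGFR minus PNX (log2) in bright cells on the vertical axis against the same difference in dim cells on the horizontal axis, for the tested members of 3 lists; the line marks equal values. Alveolar fibroblast genes reach -1.83 in bright cells while the dim differences lie near 0, and the clock genes Per3 and Nfil3 lie on the same side of 0 in both gates.

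Genes of the elastic fibre and its scaffold were mostly lower. Of 14 tested, 7 were lower at an unadjusted p below 0.05 and 0 higher, with a median of -0.40. Fbln5, fibulin 5, which guides elastin onto microfibrils, had 7.79 and 7.81 in PNX-dnFGFR cells, 8.67 and 9.26 in PNX cells and 8.65 and 8.37 in SHAM cells (-1.17 ± 0.24, unadjusted p = 7.1e-04). Ltbp4 was at -0.61 (unadjusted p = 0.0025) and Ltbp1 at -0.63 (unadjusted p = 0.0046), both encoding proteins that hold latent TGF-beta in the matrix. Elastin itself, Eln, had 12.05 and 11.88 in PNX-dnFGFR cells and 12.24 and 12.17 in PNX cells (-0.24, unadjusted p = 0.15). Eln signals are near the top of the array's range, which ends at 13.046. The count of lower elastic fibre genes was 4 without PNX replicate 2 or without PNX-dnFGFR replicate 2.

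Small leucine-rich proteoglycans, which bind collagen fibrils and growth factors, had 4 of 8 members lower at an unadjusted p below 0.05 and 0 higher, with a median of -0.69. Aspn, asporin, had 6.03 and 5.56 in PNX-dnFGFR cells, 6.83 and 7.16 in PNX cells and 7.06 and 6.78 in SHAM cells (-1.20 ± 0.20, unadjusted p = 1.6e-04, adjusted p = 0.076). Ogn was at -0.76 (unadjusted p = 0.0019), Podn at -0.83 (unadjusted p = 0.0093) and Prelp at -0.62 (unadjusted p = 0.019). The count was 2 without PNX-dnFGFR replicate 1. The abundant members Dcn, decorin, and Bgn, biglycan, were at 0.02 and -0.18.

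Collagens had 8 of 25 members lower and 0 higher at an unadjusted p below 0.05, a count that was 1 without PNX replicate 2, 5 without PNX replicate 1 and 2 without PNX-dnFGFR replicate 2. The fibrillar Col1a1 had 12.46 and 12.41 in PNX-dnFGFR cells and 12.35 and 12.34 in PNX cells (0.09, unadjusted p = 0.49), and Col3a1 was at 0.09 as well. Those lower included the basement membrane chains Col4a3 (-1.39, unadjusted p = 0.009) and Col4a4 (-1.23, unadjusted p = 0.0028) and the transmembrane Col13a1 (-0.98, unadjusted p = 0.02, and -0.42 without PNX replicate 2). Col4a3 had 4.96 and 4.68 in PNX-dnFGFR cells and 5.89 and 6.52 in PNX cells, so its PNX-dnFGFR signals were below the filter and the difference was -1.10 with such values held at it.

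Ccn2, the connective tissue growth factor gene and a target of YAP and TGF-beta, was the gene with the largest decrease under the rule for named genes. It had 5.91 and 6.52 in PNX-dnFGFR cells, 7.57 and 8.67 in PNX cells and 6.84 and 6.72 in SHAM cells (-1.90 ± 0.36, unadjusted p = 4.6e-04, adjusted p = 0.089). Its PNX-dnFGFR arrays were below the SHAM arrays too, and the dim difference was -0.85. Ccn5, a related matricellular gene, was at -1.09 (unadjusted p = 0.0055) and Sparcl1 at -0.86 (unadjusted p = 0.0071). Of 18 matricellular genes, 5 were lower and 0 higher at an unadjusted p below 0.05, the others being Tnxb (-0.37) and Spon1 (-0.60). That count was 1 without PNX replicate 2 and 2 without PNX-dnFGFR replicate 2.

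Contractile and alveolar myofibroblast genes were mixed. Acta2, alpha smooth muscle actin, had 9.88 and 8.59 in PNX-dnFGFR cells, 9.73 and 10.11 in PNX cells and 9.36 and 8.14 in SHAM cells (-0.68 ± 0.45, unadjusted p = 0.16). The groups overlapped, since PNX-dnFGFR replicate 1 lay between the PNX arrays. Myl9, the regulatory light chain of smooth muscle myosin, had 9.31 and 9.18 in PNX-dnFGFR cells and 9.98 and 10.65 in PNX cells (-1.07, unadjusted p = 8.7e-04). Tpm1, tropomyosin 1, was at -0.49 (unadjusted p = 0.0071) and Cnn2, calponin 2, at -0.42 (unadjusted p = 0.0079). Of 17 contractile genes, these 3 were lower at an unadjusted p below 0.05 (17.6%, against 7.00% of all genes). Cnn3 (0.72) was higher (5.88%, against 5.55% of all genes), and the median was -0.15. The lower count was 5 without PNX replicate 1 or without PNX-dnFGFR replicate 1, and the higher one was 4 without PNX replicate 1 and 0 without any of the other 3 arrays.

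Of 11 alveolar myofibroblast genes, 9 were below 0, with a median of -0.25 in bright and 0.23 in dim cells. At an unadjusted p below 0.05, Aspn, described above, and Wnt5a were lower (18.2%, against 7.00% of all genes). Nkd1, an inhibitor of Wnt signals, was higher (0.74, unadjusted p = 0.023), which is 9.09% of the list against 5.55% of all genes. Wnt5a, a Wnt ligand of the non-canonical pathway, had 7.42 and 7.37 in PNX-dnFGFR cells and 8.25 and 8.22 in PNX cells (-0.84, unadjusted p = 0.033). Hhip, which binds hedgehog ligands, had 8.75 and 7.21 in PNX-dnFGFR cells and 8.80 and 9.62 in PNX cells (-1.23 ± 0.77, unadjusted p = 0.14). P2ry14, a receptor for UDP-sugars, was at -1.22 (unadjusted p = 0.058), or -0.46 with values below the filter held at it. Nkd1 and Hhip leaned on single arrays, Hhip being at -0.46 without PNX-dnFGFR replicate 2. Without that array 1 member was lower and 0 higher. Cthrc1 and Serpina3n, markers of activated fibroblasts that had lower signals in SHAM cells (4.32 and 4.73 for Cthrc1), were at 0.06 and -0.20. For Cthrc1 the signals were 7.58 and 7.02 in PNX-dnFGFR cells and 7.27 and 7.20 in PNX cells, which overlap.

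Lipid storage genes differed from one to the next. Dgat2, which makes triglyceride, had 6.0 and 5.72 in PNX-dnFGFR cells, 6.74 and 7.11 in PNX cells and 5.88 and 5.95 in SHAM cells (-1.07, unadjusted p = 3.7e-04). G0s2, an inhibitor of triglyceride breakdown, had 7.66 and 7.63 in PNX-dnFGFR cells and 8.51 and 9.27 in PNX cells (-1.24, unadjusted p = 2.5e-04). Plin2, the lipid droplet coat protein, had 9.40 and 9.04 in PNX-dnFGFR cells and 8.85 and 9.19 in PNX cells (0.19, unadjusted p = 0.38). Of 17 such genes, Dgat2 and G0s2 were lower at an unadjusted p below 0.05 (11.8%, against 7.00% of all genes) and 1 was higher (5.88%, against 5.55%). Fabp4, a fatty acid carrier, was higher (2.04, unadjusted p = 0.048), but by 0.34 against PNX replicate 1 alone. Without PNX replicate 1 the lower count was 4. Adventitial fibroblast genes, a different class, had 5 of 19 lower and 0 higher, with a median of -0.44, namely Entpd2 at -0.68 (unadjusted p = 0.0015), Adh7 at -1.14, Gsn at -0.53, Mfap5 at -0.57 and Clec3b at -0.68. Without PNX replicate 2 the count was 2, and without PNX-dnFGFR replicate 1 it was 3. The 4 Gsn probe sets above the filter ranged in difference between -0.53 and 0.09.

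The other large increases differed in how far they depended on 1 PNX array. Sema4a, a semaphorin, had 8.34 and 8.18 in PNX-dnFGFR cells, 6.31 and 6.47 in PNX cells and 6.27 and 6.32 in SHAM cells (1.86 ± 0.26, unadjusted p = 4.4e-05, adjusted p = 0.065). It was about equal against either PNX array, at 1.78 against replicate 2 and 1.95 against replicate 1. Trim9, a ubiquitin ligase of neurons, had 7.59 and 7.63 in PNX-dnFGFR cells and 5.49 and 4.16 in PNX cells (2.79, unadjusted p = 7.4e-05, adjusted p = 0.065). Cxcl5, a neutrophil chemoattractant, had 6.08 and 5.17 in PNX-dnFGFR cells and 3.47 and 2.26 in PNX cells (2.76, unadjusted p = 4.7e-05), but only 0.52 with values below the filter held at it.

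Serpinb2, an inhibitor of plasminogen activators, had the largest difference of the 15 (3.35, unadjusted p = 9.2e-04). Its signal was 7.64 and 6.57 in PNX-dnFGFR cells, 5.14 and 2.36 in PNX cells and 1.87 and 2.02 in SHAM cells. With values below the filter held at it, Serpinb2 was at 1.98, and Aqp3 was larger at 2.88. Aqp3, a water and glycerol channel, had 9.37 and 8.16 in PNX-dnFGFR cells and 6.67 and 4.35 in PNX cells (3.26, unadjusted p = 0.0031), and its other probe set above the filter differed by 0.23. Rarres1 had 8.0 and 8.17 in PNX-dnFGFR cells, 6.90 and 3.69 in PNX cells and 4.72 and 4.29 in SHAM cells (2.79, unadjusted p = 0.005). With low values held at the filter it was at 2.08. In these genes PNX replicate 1 lay between the PNX-dnFGFR arrays and PNX replicate 2. Rdh10, the retinol dehydrogenase that starts retinoic acid synthesis, Cldn10, a tight junction claudin, and Bend4 showed the same order, with differences of 2.29, 2.15 and 2.14. So did Apol9a (2.16), Steap1 (2.13), Ptger3 (1.92), Htr1b (1.82) and Celf4 (1.80).

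Mesothelial markers followed the same order of arrays in part. The 10 tested averaged 6.99 and 7.51 in PNX-dnFGFR cells, 7.84 and 5.53 in PNX cells and 6.61 and 6.18 in SHAM cells, and 1 of 10, Bnc1, was higher at an unadjusted p below 0.05 (4 without PNX replicate 1, and 0 without any of the other 3 arrays). Bnc1, a zinc finger protein of mesothelium, had 5.98 and 5.79 in PNX-dnFGFR cells and 5.57 and 2.23 in PNX cells. Wt1, the Wilms tumour factor, had 4.64 and 6.13 in PNX-dnFGFR cells and 5.55 and 2.72 in PNX cells. For both genes PNX replicate 1 was near the PNX-dnFGFR arrays and PNX replicate 2 was low. With values below the filter held at it, Bnc1 differed by 0.55 and Wt1 by 0.29. Not every member had this order. Aldh1a2 had 9.52 and 9.74 in PNX-dnFGFR cells and 9.68 and 9.49 in PNX cells. Krt7, the 1 member below 0 beside 9 above, had 6.10 and 6.36 in PNX-dnFGFR cells and 6.65 and 6.67 in PNX cells. The list's median difference was 1.98 against PNX replicate 2 and -0.29 against PNX replicate 1. The part of mesothelial cells in the increases above was not tested.

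**Figure D5:**
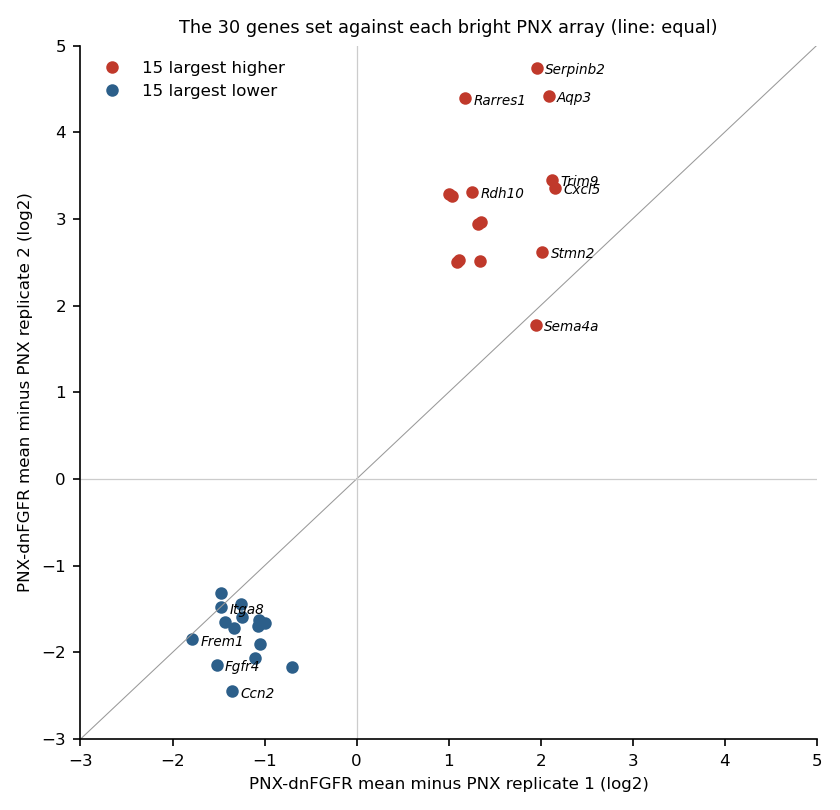
The 15 largest increases and 15 largest decreases under the rule for named genes, with the mean of the PNX-dnFGFR arrays set against PNX replicate 1 (horizontal) and against PNX replicate 2 (vertical), in log2. Points on the line differ equally from both arrays: Sema4a lies near it (1.95 and 1.78), and Rarres1 far above it (1.18 and 4.39).

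The largest decreases were smaller than the largest increases. Beside Ccn2, Fgfr4, Itga8 and Col4a3 they were Frem1, a basement membrane protein (-1.82), Fam189a2 (-1.58), Sgk1, a kinase induced by glucocorticoids (-1.54), Slc38a5, a glutamine transporter (-1.53), Cpb1 (-1.48), Smoc1 (-1.44), Errfi1, an inhibitor of the EGF receptor (-1.42), Sphk2, a sphingosine kinase (-1.39), Lbp, the lipopolysaccharide-binding protein (-1.35), Astn2 (-1.35) and Fam163b (-1.33). Slc38a5 had 6.92 and 6.19 in PNX-dnFGFR cells and 7.89 and 8.27 in PNX cells (± 0.23, adjusted p = 0.065). Sgk1 had 7.61 and 7.75 in PNX-dnFGFR cells, 9.11 and 9.33 in PNX cells and 8.67 and 8.07 in SHAM cells. The dim difference of Sgk1 was -0.81 and that of Errfi1 -1.73. With low values held at the filter, Cpb1 was at -0.44 and Smoc1 at -0.86. Probe sets above the filter disagreed for Sphk2, the other differing by -0.13, and for Fam189a2, which ranged between -1.58 and -0.29. Leaving out 1 array, Smoc1 was at -0.70 without PNX replicate 2, and Frem1 was at -1.11 and Cpb1 at -0.93 without PNX-dnFGFR replicate 2.

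Glucocorticoid-responsive genes had 7 of 17 lower and 1 higher at an unadjusted p below 0.05, with a median of -0.23. The lower count was 4 without PNX replicate 2 or without PNX-dnFGFR replicate 1, and the higher one was 0 without PNX replicate 2. In dim cells the median was -0.35, with 3 lower and 1 higher. Hsd11b1, which regenerates active glucocorticoid, had 7.87 and 7.53 in PNX-dnFGFR cells and 8.32 and 9.37 in PNX cells (-1.15, unadjusted p = 0.003, and -0.63 without PNX replicate 2). Tsc22d3, the glucocorticoid-induced leucine zipper gene, picked after its values were seen, was at -1.42 (unadjusted p = 0.014), and the member on the higher side was Nfkbia (0.81).

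Retinoid genes were split, with 3 of 16 higher and 3 lower. Crabp2, a retinoic acid carrier, had 8.12 and 7.62 in PNX-dnFGFR cells, 6.91 and 6.09 in PNX cells and 5.28 and 5.1 in SHAM cells (1.38, unadjusted p = 0.0013). Cyp26b1, which degrades retinoic acid, had 6.98 and 7.32 in PNX-dnFGFR cells and 6.08 and 6.02 in PNX cells (1.10, unadjusted p = 7.2e-04). The third higher gene was Rdh10, described above. Adh1, an alcohol dehydrogenase, was at -0.70 (unadjusted p = 0.0012), Adh7 at -1.14 and the receptor Rxra at -0.31 (unadjusted p = 0.029). Without PNX-dnFGFR replicate 2, 1 was lower.

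Cytokines and chemokines of fibroblasts had 6 of 19 higher and 4 lower at an unadjusted p below 0.05. The higher count was 2 without PNX replicate 2, and the lower one was 2 without PNX-dnFGFR replicate 2. Ccl7, a monocyte chemoattractant, had 6.87 and 7.43 in PNX-dnFGFR cells, 5.80 and 6.28 in PNX cells and 5.27 and 4.73 in SHAM cells (1.11, unadjusted p = 0.0024). Cxcl16 was at 0.67 (unadjusted p = 0.012). Tnfsf13b, the B cell survival factor BAFF, had 8.89 and 8.23 in PNX-dnFGFR cells and 9.24 and 9.97 in PNX cells (-1.04, unadjusted p = 0.0028). The other lower members were Tslp (-0.98, or 0.00 with values held at the filter), Ccl19 (-0.66) and Cxcl14 (-0.89). Of 15 interferon response genes, 4 were higher and 1 lower, with Ifit1 at 1.62 (unadjusted p = 0.0022), the transcription factor Irf7 at 0.86 (unadjusted p = 0.0022), Ifit3 at 0.58, Mx2 at 1.01 and, on the lower side, Irf8 at -0.54. The interferon count on the higher side was 2 without PNX replicate 2 or without PNX-dnFGFR replicate 1. The interferon median in dim cells was 0.33, against 0.44 in bright cells. Of 19 glycolysis and hypoxia genes, 5 were higher and 1 lower. The higher ones were the glycolytic enzymes Hk2 (0.79), Pfkl (0.66, unadjusted p = 0.0087) and Pkm (0.55, unadjusted p = 0.012), the lactate carrier Slc16a3 (0.56) and the oxygen sensor Egln3 (2.55), and the lower one was Adm (-0.54). Egln3 had 8.67 and 8.81 in PNX-dnFGFR cells and 8.22 and 4.16 in PNX cells, so its difference was 0.52 without PNX replicate 2. The count of higher ones was 0 without PNX replicate 2 or without PNX-dnFGFR replicate 1.

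Of the other signalling lists, the hedgehog pathway had 3 of 12 genes lower and 0 higher, with a median of -0.47. Gli1, a transcriptional effector and target of the pathway, had 6.64 and 6.34 in PNX-dnFGFR cells and 7.08 and 8.11 in PNX cells (-1.11, unadjusted p = 0.011). The co-receptor Boc was at -0.72 (unadjusted p = 0.0096) and the receptor and target Ptch1 at -0.75 (unadjusted p = 0.021), with 0 lower without PNX replicate 2 and 1 without PNX-dnFGFR replicate 2. The IGF axis had 4 of 12 lower and 0 higher, with Igfbp5, a binding protein, at -0.87 (unadjusted p = 0.0038), Igf2 at -0.81 (unadjusted p = 0.021), the protease Pappa2 at -0.96, the receptor Igf1r at -0.40 and the abundant Igf1 at 0.06. That count was 2 without PNX replicate 2, without PNX-dnFGFR replicate 1 or without PNX-dnFGFR replicate 2.

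Markers of other cell types were compared as well. Of 15 epithelial markers, 10 were below 0 and 5 above, with a median of -0.33. At an unadjusted p below 0.05, 1 was lower (6.67%, against 7.00% of all genes), Slc34a2 (-1.09, unadjusted p = 0.044), and 0 were higher. Cldn18 had 6.63 and 6.36 in PNX-dnFGFR cells and 7.71 and 7.75 in PNX cells (-1.24, unadjusted p = 0.06), Ager was at -0.90 (unadjusted p = 0.053) and Sftpc, at 11.50 and 11.36 in PNX-dnFGFR cells and 11.96 and 11.92 in PNX cells, at -0.51 (unadjusted p = 0.054). The epithelial markers named here are all among the 10 below 0, and the 5 above 0 are not described. The mean of the epithelial list was 6.67 and 7.60 in PNX-dnFGFR cells and 7.13 and 7.82 in PNX cells, which overlap. Macrophage and dendritic cell markers averaged 6.87 and 6.81 in PNX-dnFGFR cells and 6.68 and 7.16 in PNX cells. Of the 20 tested, 13 were below 0 and 7 above, with a median of -0.22 (0.05 without PNX replicate 2). At an unadjusted p below 0.05, 1 was higher (5%, against 5.55% of all genes), Cd14 (1.69), and 0 were lower. Of 7 neutrophil and mast cell markers, 6 were above 0, with a median of 0.58 that was -0.27 without PNX replicate 2. The 1 with an unadjusted p below 0.05 was Il1r2, the decoy receptor of interleukin 1, which had 6.81 and 6.56 in PNX-dnFGFR cells, 5.39 and 5.34 in PNX cells and 4.98 and 4.81 in SHAM cells (1.32 ± 0.19, unadjusted p = 4.8e-05, adjusted p = 0.065). Of 9 lymphocyte markers, 8 were below 0, with a median of -0.17 and 0 at an unadjusted p below 0.05. The erythrocyte gene Hba-a1 had 10.24 and 10.18 in PNX-dnFGFR cells and 11.35 and 5.80 in PNX cells, so PNX replicate 2 stood apart in this transcript too. Pdgfrb, the PDGF receptor of pericytes and fibroblasts, was at 0.21 (unadjusted p = 0.42). The part of carried-over RNA or cells in the lists above was not tested.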

How the data were processed

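The authors' deposited values are log2 signals of 12 Affymetrix arrays. RMA made them, per the submitters' processing notes, with a version that is not given in the sources used here. Values ran between 1.52 and 13.046, with array medians between 5.064 and 5.129, and were used as deposited. Of 45141 probe sets, 28898 had 1 gene in the array's annotation, 551 several and 15588 none. Each of 17097 genes was represented by its probe set of highest mean signal. A gene was tested where at least 2 arrays exceeded log2 5.101, the median value of the table, as 11073 did. Limma 3.58.1 in R 4.3.3 fitted 1 mean per group over all arrays (6 residual degrees of freedom), with Benjamini-Hochberg adjustment over the genes tested. Bright and dim arrays entered as independent samples; the labels do not say whether they share animals, and if they do, p-values of the contrast between gates do not allow for it. The fit was tested on simulated data. Of 882 list entries, 83 had no probe set and were not analysed here.

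Named genes were up to 15 in each direction with the largest difference, an adjusted p below 0.05, or else an unadjusted p below 0.01, and groups that did not overlap. Added to them were up to 4 of each list by p and 2 by level, and a set list of FGF, matrix and clock genes, of which Etv4 was below the filter. Other members that complete a count of 5 or fewer, and markers of other cell types, were picked after their values were seen. The genes and lists were chosen with earlier results of these data known. Alternatives changed the filter, the normalization, the summary of probe sets, the variance model, the arrays in the fit and the block.

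The labels do not say what a replicate number marks. Across genes, the replicate differences of bright PNX-dnFGFR and bright PNX correlated at 0.065, those of bright SHAM with these at 0.347 and 0.288, and those of all 15 pairs of groups between -0.185 and 0.347, so the numbers were not taken to pair the arrays. Promoter sequences are RefSeq's, from GRCm38.p6.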

Additional observations from a re-analysis of the deposited data

How the results depend on the processing

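The number of genes higher at an adjusted p below 0.05, 1 as reported, was 14 with a stricter filter (log2 6.762), 8 with a variance trend, 47 with values below the filter held at it and 32 at an adjusted p below 0.1. It was 0 with the mean of probe sets, 0 with the compared groups alone and 0 with the replicate block, while the block as a random effect (correlation 0.015), no filter and a further quantile normalization left it at 1. The number lower, 0 as reported beside 775 at an unadjusted p, was 23, 24, 31 and 34 in the first 4 of these settings. With single arrays left out, 0 to 237 genes were higher and 0 to 192 lower. The highest of both came without bright PNX replicate 1, and without bright PNX replicate 2 both were 0 (306 higher and 415 lower at an unadjusted p below 0.05). The number of genes whose difference differed between bright and dim cells was 0 to 50 with arrays left out, 1 with values held at the filter and 0 otherwise (909 at an unadjusted p). What the replicate numbers share is not given in the labels.

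Stmn2 lay between 1.59 and 2.62 in every alternative, with adjusted p-values of 0.0037 to 0.37, highest with the compared groups alone, and it passed in 12 of 21. Of the other genes named, Trim9, Sema4a, Fgfr4, Slc38a5, Itga8, Astn2 and Nfil3 passed with the stricter filter and with the variance trend. Differences near 0 turned: Rarres2 was 0.01 and Igf1 -0.05 with the mean of probe sets, and Dcn -0.01 after a further quantile normalization. With single arrays left out, the values ranged between -0.01 and 0.16 for Fgfr2, -0.23 and 0.42 for Fgf18, -0.11 and 0.19 for Spry2, -0.18 and 0.71 for Dusp6, -0.05 and 0.93 for Etv5, -0.07 and 0.11 for Dcn, -0.02 and 0.20 for Col3a1, -0.21 and 0.34 for Cthrc1, -0.16 and 2.67 for Wt1 and -1.13 and 4.41 for Hba-a1. The cause of these changes was not tested. With 2 arrays per group, a difference that missed the threshold is not shown to be absent.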
